A study of Mus musculus with 25 samples.

Results

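The S100 genes encode small calcium-binding proteins, and 8 of them were followed here across group 1 innate lymphoid cells (G1-ILCs) of mice: *S100a1*, *S100a4*, *S100a6*, *S100a8*, *S100a9*, *S100a10*, *S100a11* and *S100a13*. They were taken by symbol as 8 of the 46078 genes in the deposited count table, and all 8 passed the filter on low counts that left 14123 genes for testing. *S100a8* and *S100a9*, abundant in neutrophils, also served as a check for RNA of myeloid cells in the sorted samples. The study compared ILC1s with NK cells of fetal liver, adult liver and other tissues by RNA-seq, in 25 libraries of 8 sorted groups.

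S100 proteins are small proteins with a pair of EF-hands, loops that bind calcium, and most of them work as dimers that change shape on calcium binding and then dock onto partner proteins. S100A10 differs in that it has lost calcium binding and sits in a complex with annexin A2 at membranes. S100A6 binds the calcyclin-binding protein (gene *Cacybp*), S100A11 binds annexin A1, and S100A4 binds non-muscle myosin and is known for its part in cell motility. S100A8 and S100A9 pair to form calprotectin, which neutrophils and monocytes store and release, while S100A1 is best known in heart and skeletal muscle and S100A13 from the unconventional export of growth factors.

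All cells came from C57BL/6 wild-type mice and were sorted as CD3- NK1.1+ NKp46+, with further markers that differed by group. Fetal liver (FL) G1-ILCs, at E18.5, were CD49a int CD49b int and gave 4 libraries. From livers of adults of 8 weeks came AL 7R- ILC1s (4 libraries) and AL 7R+ ILC1s (3), both CD49a+ CD49b lo and divided by IL-7R, and AL NK cells (2), which were CD49a- CD49b+. Adult bone marrow gave BM iILC1s (immature ILC1s, CD49a+ CD49b lo, 3 libraries) and BM NK cells (CD49a- CD49b+, 3). LPL ILC1s of the small intestinal lamina propria were gated by CD27 and IL-7R instead (4), and SG G1-ILCs of the salivary gland were CD49a+ CD49b+ (2). The study calls the libraries of a group biological replicates, and the labels do not tie them to single mice. The p-values therefore judge differences against the spread between samples, estimated over all groups together, and not against a spread between known mice.

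Libraries held 2302643 to 7995906 counts, with a median of 4603579. FL G1-ILCs libraries 2 and 3 differed by little more than counting noise and were counted as 1 sample, which leaves 24 samples. Levels are given as CPM, the counts relative to library size after scaling by edgeR's TMM method, with the SD over samples. *Il7r* followed the gates, at 541 CPM in AL 7R+ ILC1s and 1.71 CPM in AL 7R- ILC1s. *Eomes*, the regulator that marks NK cells, was at 472 CPM in AL NK cells and 2.25 CPM in AL 7R+ ILC1s. The genes of CD49a (*Itga1*) and CD49b (*Itga2*) followed the gates in part. *Itga1* was at 3.31 CPM in AL NK cells, but at 241 CPM in FL G1-ILCs and 162 CPM in BM iILC1s. *Itga2* was at 121 CPM in AL NK cells, but at 11.5 CPM in SG G1-ILCs and 21.7 CPM in AL 7R+ ILC1s. In bulk RNA, fewer cells of a type and less RNA per cell cannot be told apart.

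In 3 of the 24 samples *S100a8* and *S100a9* each exceeded 10 CPM: FL G1-ILCs replicates 1 and 4 and BM iILC1s replicate 2. The same 3 samples were the highest for the summed level of 14 other neutrophil genes, from which *Mmp9* was left out after its values were seen. With *Mmp9* in the sum they were not: AL 7R+ ILC1s were at 386.5 to 507 CPM and FL G1-ILCs replicate 1 at 70.2 CPM. Genes on the marker lists of other cell types also had counts in whole groups, though the genes of a list did not always go together. In AL NK cells, for example, *Trbc1* was at 416 CPM and *Cd3e* at 0. Whether these transcripts came from other cells was not tested. The summed CPM of 16 monocyte and macrophage genes, led by *Lyz2*, *Cd14* and *C1qb*, was 1000 to 1057 in SG G1-ILCs, 273 to 474 in BM iILC1s, 27.2 to 228 in BM NK cells, and at most 115 in every other sample. The epithelial genes, led by *Cdh1*, *Epcam* and *Lgals4*, summed to 862 to 984 CPM in SG G1-ILCs and at most 153 CPM elsewhere. T cell genes, led by *Trbc1*, *Trbc2* and *Trac*, ran from 419 to 1564 CPM, and B cell genes, nearly all *Ighm* with *Cd79b* and *Cd79a*, from 202 to 753 CPM. Erythroid genes (*Hba-a1*, *Hbb-bs*, *Hba-a2*) reached 415 CPM in AL 7R- ILC1s and 218.5 CPM in FL G1-ILCs, hepatocyte genes (*Trf*, *Afp*, *Apob*) at most 163 CPM, and stromal and endothelial genes (*Pecam1*, *Stab2*, *Col3a1*) at most 231 CPM.

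All 8 genes lie on mouse chromosome 3 (GRCm38, the same assembly as mm10), in a cluster and an outlying pair. *S100a1* (chr3:90511034-90514392, minus strand) and *S100a13* (chr3:90514435-90524581, plus strand) stand back to back, 42 bases apart. *S100a4* (chr3:90603771-90606045, plus strand) is followed after 6.84 kb by *S100a6* (chr3:90612882-90624181, plus strand), then by *S100a8* (chr3:90668978-90670035, plus strand) and *S100a9* (chr3:90692632-90695721, minus strand). *S100a11* (chr3:93520488-93526287, plus strand) and *S100a10* (chr3:93555080-93564643, plus strand) lie 2825 kb farther along and 28.8 kb from each other. Of the members, *S100a4* was the one that shared exon bases with another gene, the same-strand model *Gm42674*. The shared stretch covered 302 of its 584 exon bases (51.7%), so its counts may rest on the other 282 bases, and *Gm42674* itself had 0 counts in all 25 libraries. The level of *S100a4* is therefore uncertain and may be understated.

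**Figure D1:**
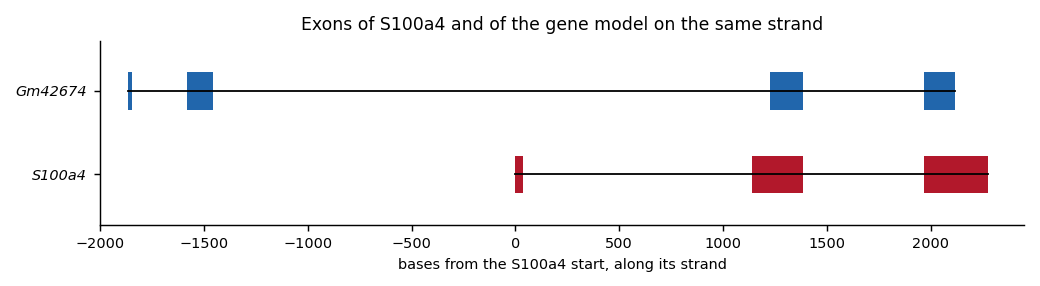
Exons (boxes) and introns (lines) of *S100a4* and *Gm42674*, drawn to scale against the distance in bases from the *S100a4* start along its strand. The last 2 exons of both models overlap, and 302 of 584 exon bases of *S100a4* are shared.

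The 250 bases before the RefSeq start are shown for the genes whose levels moved together across samples, *S100a6*, *S100a4* and *S100a11* on one side and *S100a8* and *S100a9* on the other. Sequences are from RefSeq (GRCm38.p6) and run 5′ to 3′ on the strand of the gene, and 7 of the 8 members had an entry. The gene positions above are from GENCODE, whose starts differ for some genes. The window of *S100a8* ends at 90669070, past its GENCODE start at 90668978, and those of *S100a6* and *S100a11* also run past theirs. Capitals mark matches, on either strand, to 5 motifs: RUNX (TGTGGT), T-box (TCACAC), AP-1 (TGANTCA), C/EBP (TTNNGNAAT) and the TATA box (TATAAA). The windows are chr3:90612644-90612893 (*S100a6*, plus), chr3:90603520-90603769 (*S100a4*, plus), chr3:93520246-93520495 (*S100a11*, plus), chr3:90668821-90669070 (*S100a8*, plus) and chr3:90695722-90695971 (*S100a9*, minus).
S100a6: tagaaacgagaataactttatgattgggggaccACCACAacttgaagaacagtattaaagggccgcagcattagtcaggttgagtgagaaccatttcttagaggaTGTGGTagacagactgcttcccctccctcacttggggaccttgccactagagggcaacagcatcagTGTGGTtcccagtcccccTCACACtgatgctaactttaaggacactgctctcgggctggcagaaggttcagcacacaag
S100a4: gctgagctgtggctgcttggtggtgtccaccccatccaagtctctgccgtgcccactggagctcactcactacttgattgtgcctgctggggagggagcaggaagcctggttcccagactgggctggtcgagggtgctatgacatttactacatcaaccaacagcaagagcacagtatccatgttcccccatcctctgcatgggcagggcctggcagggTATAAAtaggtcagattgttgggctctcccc
S100a11: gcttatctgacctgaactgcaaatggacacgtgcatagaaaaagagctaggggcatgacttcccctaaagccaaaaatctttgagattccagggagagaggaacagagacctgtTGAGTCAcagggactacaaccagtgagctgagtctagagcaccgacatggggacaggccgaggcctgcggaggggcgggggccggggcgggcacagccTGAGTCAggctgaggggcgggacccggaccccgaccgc
S100a8: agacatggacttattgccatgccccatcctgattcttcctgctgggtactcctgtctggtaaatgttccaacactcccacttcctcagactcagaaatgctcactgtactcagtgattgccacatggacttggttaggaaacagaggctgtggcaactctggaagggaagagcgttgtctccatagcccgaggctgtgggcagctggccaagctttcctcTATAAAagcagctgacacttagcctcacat
S100a9: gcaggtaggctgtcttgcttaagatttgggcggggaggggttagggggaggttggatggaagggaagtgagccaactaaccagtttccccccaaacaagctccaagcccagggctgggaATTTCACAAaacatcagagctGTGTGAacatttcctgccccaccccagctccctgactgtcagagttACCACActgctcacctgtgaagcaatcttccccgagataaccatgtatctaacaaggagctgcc

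The window of *S100a6* held 3 RUNX matches, 217, 145 and 79 bases before the start, and a T-box match at 61 bases. Among 27025 promoters of the same length, 14.2% held a RUNX match and 12.2% a T-box match. *S100a4* and *S100a8* each held a TATA box, 31 and 30 bases before the start, which 13% of promoters share. *S100a11* held 2 AP-1 matches, at 136 and 38 bases, against 6.87% of promoters with any. *S100a9* held a C/EBP match at 131 bases (10.3% of promoters hold one), a T-box match at 110 and a RUNX match at 64. No matches overlapped. *S100a13* held 1 T-box match, at 163 bases, and *S100a1* held none. These are matches of letters, and binding was not measured here.

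Per length of exon sequence, *S100a11* was the most abundant of the 8, at a mean of 547 CPM per kb over the 24 samples. *S100a10* followed at 280, *S100a6* at 147, *S100a13* at 97.5 and *S100a1* at 25.4 CPM per kb. *S100a9*, *S100a8* and *S100a4* had means of 9.26, 7.68 and 6.76 CPM per kb, and over its 282 unshared bases alone *S100a4* would be at 14 CPM per kb, above the other two. Summed over the 8 genes, the level was 1337 ± 170 CPM (SD, n = 4) in AL 7R- ILC1s and 1302 ± 129 CPM (n = 3) in FL G1-ILCs. The sum was lowest in LPL ILC1s, at 464 ± 41.6 CPM (n = 4), and lay between 793 and 906.5 CPM in the means of the other 5 groups. All 8 genes differed among the 8 groups (edgeR quasi-likelihood F test), as did 77.7% of the genes tested. *S100a4*, *S100a8* and *S100a9* passed the filter on low counts only through groups where they were high. Their tests therefore add nothing to this comparison.

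**Figure D2:**
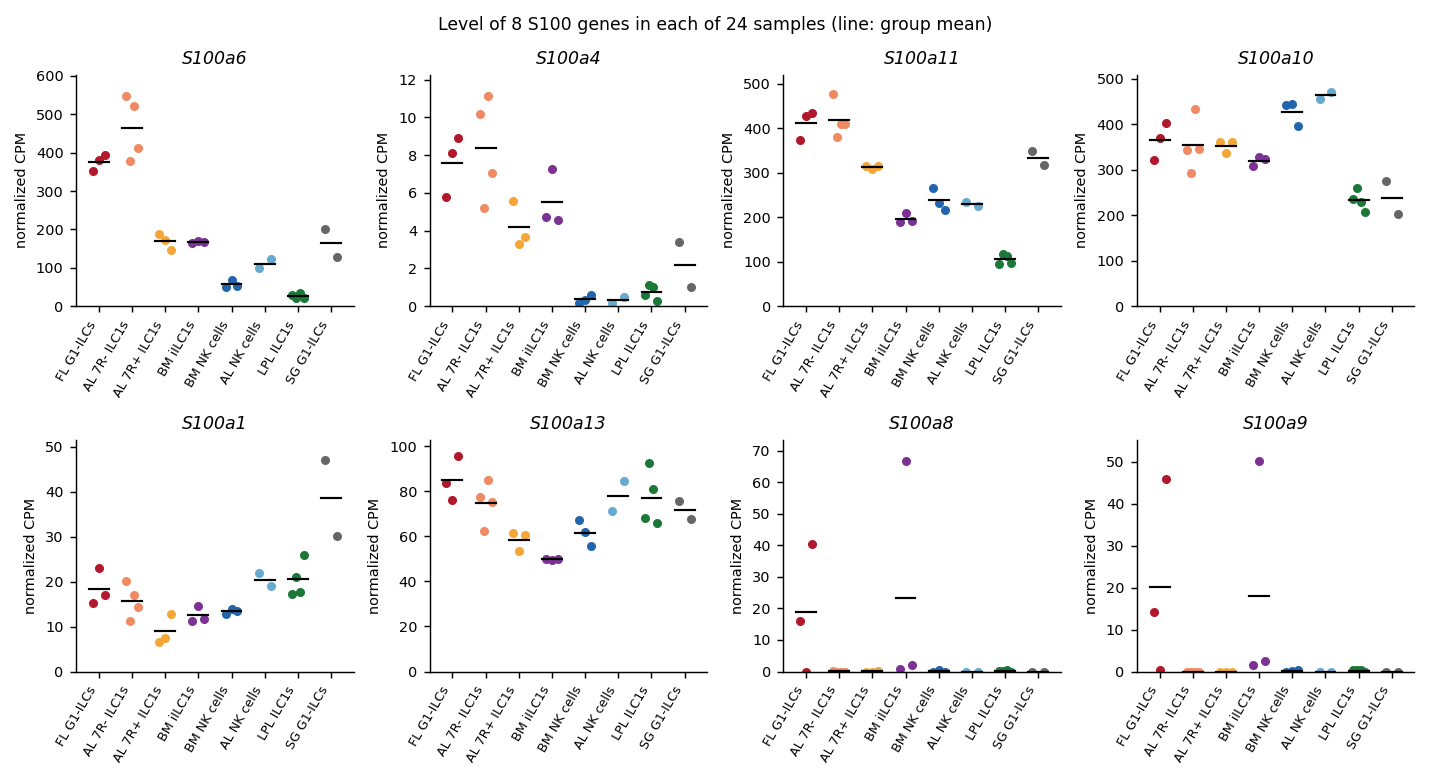
Level of each gene in normalized CPM (y axis) in the 24 samples, by sorted group (x axis). Points are samples and lines are group means. *S100a6* sits highest in AL 7R- ILC1s and FL G1-ILCs (352 CPM or more in each of their samples), while *S100a8* and *S100a9* rise above 10 CPM in 3 samples alone.

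*S100a6*, which encodes calcyclin, had the widest range among the abundant members. Its 4 samples of AL 7R- ILC1s had 548, 378, 520.5 and 411 CPM, and the 3 of FL G1-ILCs had 352, 381 and 394 CPM. AL 7R+ ILC1s had 189, 174 and 146 CPM, BM iILC1s 164, 170.1 and 166.5 CPM, and SG G1-ILCs 201 and 129 CPM. The NK cells were lower, with 98.7 and 122 CPM in liver and 49.8, 67.8 and 52.8 CPM in bone marrow, and LPL ILC1s were at 28.3, 21.2, 35.1 and 21.9 CPM. The order of means thus placed AL 7R- ILC1s (464 ± 82.7 CPM) and FL G1-ILCs (376 ± 21.5 CPM) on top with overlapping ranges, apart from AL 7R+ ILC1s, BM iILC1s and SG G1-ILCs, whose ranges also overlapped. AL NK cells, BM NK cells and LPL ILC1s came next, each without overlap with its neighbour, and the highest mean was 17.4-fold the lowest.

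Across the same groups *S100a11* was flatter. AL 7R- ILC1s had 477, 381, 409.9 and 409 CPM and FL G1-ILCs 373, 429 and 434 CPM, and the ranges of these groups overlapped. SG G1-ILCs had 350.0 and 317 CPM and AL 7R+ ILC1s 315, 309.7 and 316 CPM, close to each other without overlap. BM NK cells had 267, 231 and 217 CPM, AL NK cells 234 and 225 CPM and BM iILC1s 188.5, 209 and 192 CPM, so that the bone marrow ILC1s lay below both kinds of NK cells. LPL ILC1s were again lowest, with 95.9, 118, 113 and 96.1 CPM.

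*S100a4* was low in all groups. It had 10.2, 5.23, 11.1 and 7.04 CPM in AL 7R- ILC1s, 5.80, 8.10 and 8.91 CPM in FL G1-ILCs, 4.71, 7.27 and 4.59 CPM in BM iILC1s and 5.57, 3.31 and 3.69 CPM in AL 7R+ ILC1s. In the NK cells it was nearly absent, with 3 counts in all from the liver and 6 from the bone marrow, and LPL ILC1s held 11 counts over 4 samples. SG G1-ILCs had 3.38 and 1.01 CPM. Neighbours in this order overlapped in range throughout, although each of the 13 samples of the 4 upper groups exceeded each sample of NK cells.

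*S100a10*, the partner of annexin A2, had the opposite tendency and a range of 1.99-fold between highest and lowest mean. AL NK cells had 455 and 471 CPM and BM NK cells 441, 445 and 396 CPM. FL G1-ILCs had 322, 369 and 402.5 CPM, AL 7R- ILC1s 343, 293, 433 and 346 CPM, AL 7R+ ILC1s 359.8, 336 and 359.9 CPM and BM iILC1s 307.5, 329 and 323 CPM. The liver NK cells lay above every other sample, and the 3 groups of ILC1s from liver overlapped with one another. SG G1-ILCs (274 and 203 CPM) and LPL ILC1s (236.5, 259.6, 230.0 and 207 CPM) were lowest.

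Of the neighbours *S100a1* and *S100a13*, *S100a1* had a 4.29-fold span of group means. It was highest in SG G1-ILCs, with 47.1 and 30.1 CPM, and lowest in AL 7R+ ILC1s, with 6.60, 7.50 and 12.9 CPM. The means of the other 6 groups lay between 12.5 and 20.5 CPM, neighbours in that order overlapped in range, and SG G1-ILCs were the one group set apart from its neighbour. *S100a13* ranged from 49.96 CPM in BM iILC1s (50.1, 49.7 and 50.1 CPM) to 85.1 CPM in FL G1-ILCs (83.5, 76.2 and 95.6 CPM), a 1.70-fold span. AL NK cells (78.0 CPM), LPL ILC1s (76.9 CPM), AL 7R- ILC1s (75.0 CPM) and SG G1-ILCs (71.5 CPM) overlapped with one another, as did BM NK cells (61.7 CPM) and AL 7R+ ILC1s (58.5 CPM).

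To ask how ILC1s of each site differ from NK cells in these genes, each liver group was compared with AL NK cells and BM iILC1s with BM NK cells. The 3 liver comparisons share the same 2 samples of AL NK cells, so their values are given side by side. *S100a6* was higher than in NK cells in all 4 comparisons. Its log2 fold change was 1.77 ± 0.198 (SE) in FL G1-ILCs (edgeR adjusted p = 8.61e-08), 2.08 ± 0.195 in AL 7R- ILC1s (edgeR adjusted p = 4.2e-09), 0.62 ± 0.192 in AL 7R+ ILC1s (edgeR adjusted p = 0.0257) and 1.55 ± 0.175 in BM iILC1s (edgeR adjusted p = 2.39e-07). In AL 7R+ ILC1s the call rested on single samples. It was lost without AL 7R+ ILC1s replicate 1 or 2 or without AL NK cells replicate 1, with log2 fold changes from 0.47 to 0.77 over all alternatives.

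*S100a4* was also higher than in NK cells in all 4 comparisons, against very few counts. No NK sample held more than 3 counts, so *S100a4* passed the filter on low counts through other groups alone. The ratio of its levels to the 3 counts of AL NK cells was 27.5 (95% interval from counting 9.25 to 134.5) for AL 7R- ILC1s, 24.6 (8.23 to 121) for FL G1-ILCs and 13.3 (4.37 to 65.8) for AL 7R+ ILC1s. In BM iILC1s the ratio to the 6 counts of BM NK cells was 15.3 (6.72 to 42.8). These intervals cover counting error alone. The edgeR adjusted p-values were 2.11e-05, 2.61e-05, 0.000811 and 4.57e-05 in the same order. Without the 3 samples high in *S100a8* and *S100a9*, the log2 fold change in BM iILC1s was 3.57 against 3.83 with them (edgeR adjusted p = 0.000918 without them).

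*S100a11* was higher than in AL NK cells in the 3 liver groups. The log2 fold change was 0.85 ± 0.117 in FL G1-ILCs (edgeR adjusted p = 2.24e-06), 0.87 ± 0.112 in AL 7R- ILC1s (edgeR adjusted p = 1.1e-06) and 0.45 ± 0.115 in AL 7R+ ILC1s (edgeR adjusted p = 0.0067). The last of these was lost without either sample of AL NK cells. In bone marrow *S100a11* had a log2 fold change of -0.28 ± 0.103 and was not called (edgeR adjusted p = 0.0817).

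*S100a10* was lower than in NK cells in all 4 comparisons, by small amounts. The log2 fold changes were -0.42 ± 0.12 for BM iILC1s, -0.39 ± 0.125 for AL 7R- ILC1s, -0.35 ± 0.133 for FL G1-ILCs and -0.40 ± 0.132 for AL 7R+ ILC1s, with edgeR adjusted p-values of 0.0189, 0.0265, 0.0427 and 0.041. The 3 liver calls were lost without a filter on low counts and without either sample of AL NK cells. That of AL 7R+ ILC1s was also lost without any 1 of its 3 samples, that of AL 7R- ILC1s without replicate 1, 2 or 4, and that of FL G1-ILCs without replicate 1, without replicates 2 and 3 and with the replicate block. The bone marrow call was lost without BM iILC1s replicate 1 or BM NK cells replicate 1 or 2. *S100a1* was lower in AL 7R+ ILC1s (log2 fold change -1.15 ± 0.312, edgeR adjusted p = 0.0106), which was lost without AL 7R+ ILC1s replicate 1 or AL NK cells replicate 1. *S100a13* was called in none of the 4, with log2 fold changes from -0.41 to 0.13 (lowest edgeR adjusted p = 0.0893).

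Against AL NK cells, then, FL G1-ILCs had 5 members higher and 1 lower, *S100a8* and *S100a9* included, where 19.8% and 16.6% of all genes tested were called. For AL 7R- ILC1s the counts were 3 higher and 1 lower (9.94% and 10.5% of all genes), and for AL 7R+ ILC1s 3 higher and 2 lower (7.96% and 7.61%). BM iILC1s had 4 higher and 1 lower than BM NK cells, *S100a8* and *S100a9* among the former, where 6.55% and 5.55% of all genes were called. *S100a8* and *S100a9* passed the filter on low counts through samples of FL G1-ILCs and BM iILC1s alone. Their calls in these groups therefore add nothing to the comparison with the shares of all genes. *S100a4* likewise passed through groups other than NK cells and LPL ILC1s, whose samples held at most 4 counts each. Its calls against NK cells or LPL ILC1s therefore add nothing to that comparison either. The median log2 fold change of the 8 members in these 4 comparisons was 1.31, 0.43, 0.23 and 0.73, and that of all genes tested was 0.03, 0.01, 0.00 and 0.01. Without *S100a8* and *S100a9*, which 3 samples carried or which held at most 1 count, the median of the other 6 members was 0.49, 0.41, 0.03 and -0.19, so that it changed sign in BM iILC1s.

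**Figure D3:**
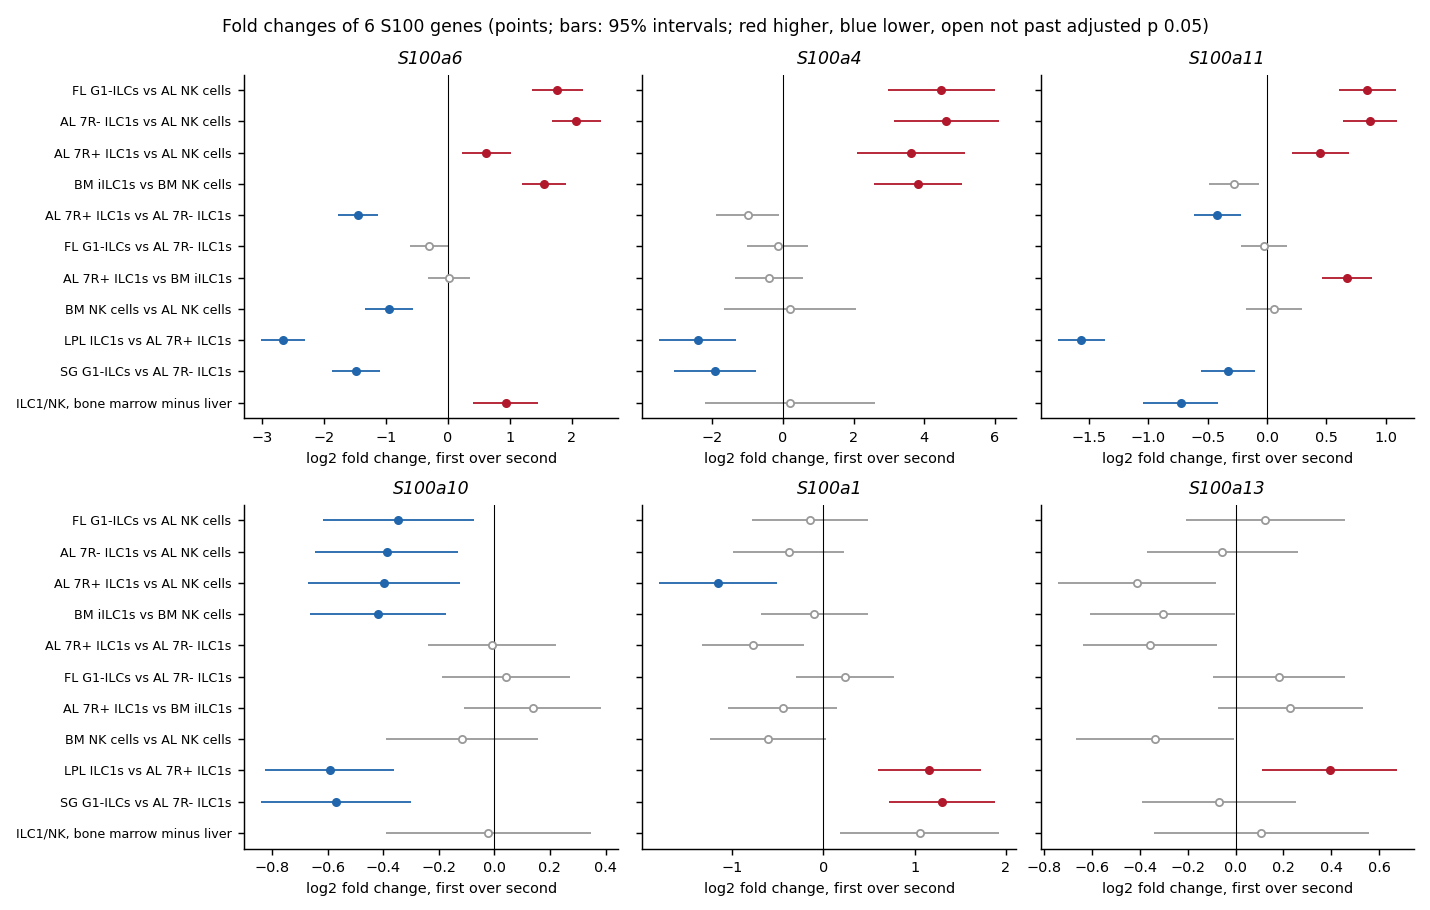
Log2 fold change (x axis) of 6 S100 genes, without *S100a8* and *S100a9*, in each comparison of sorted groups (y axis), with 95% intervals from edgeR (bars). Red points were called higher and blue points lower at an adjusted p under 0.05, open points were not called, and the x scales differ between genes. *S100a6* and *S100a4* lie to the right of 0 in all 4 comparisons of ILC1s with NK cells, and *S100a10* lies to the left.

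Whether the ILC1 to NK difference is the same in bone marrow and liver was tested directly, as the fold change of BM iILC1s over BM NK cells less that of AL 7R+ ILC1s over AL NK cells. This difference was 0.93 ± 0.255 (log2) for *S100a6* (edgeR adjusted p = 0.0409) and -0.73 ± 0.154 for *S100a11* (edgeR adjusted p = 0.00542). Thus 1 member was higher and 1 lower in bone marrow, against 1.74% and 1.35% of all genes. Both were below a log2 limit of 1. Apart from that limit, the *S100a11* call held in all 21 alternatives, while that of *S100a6* was lost in 11 of 21, among them 9 in which 1 sample was left out, and its log2 value stayed between 0.77 and 1.08. With AL 7R- ILC1s as the liver group, the fold change of *S100a6* over NK cells is the larger in liver (2.08 beside 1.55), a difference that was not tested. The NK cells themselves differed in *S100a6*, which was lower in BM NK cells than in AL NK cells (log2 fold change -0.95 ± 0.192, edgeR adjusted p = 0.00483), whereas AL 7R+ ILC1s and BM iILC1s had a log2 difference of 0.02 (95% interval -0.32 to 0.36). In that comparison of NK cells 0 members were higher and 1 was lower, where 1.01% and 1.57% of all genes were called, and the *S100a6* call was lost without AL NK cells replicate 2.

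Within the adult liver, IL-7R divided the ILC1s into groups with different levels of *S100a6* and *S100a11*. *S100a6* was lower in AL 7R+ than in AL 7R- ILC1s by a log2 fold change of -1.46 ± 0.16 (edgeR adjusted p = 4.65e-07), and *S100a11* by -0.42 ± 0.0954 (edgeR adjusted p = 0.00638). No sample of one group overlapped with the other in either gene. These 2 were the members called lower and 0 were called higher, where 2.22% and 3.06% of all genes were. *S100a10* had a log2 difference of -0.01 (95% interval -0.24 to 0.22), and *S100a1* and *S100a13* had -0.77 and -0.36 without a call (edgeR adjusted p = 0.114 and 0.16). Without AL 7R+ ILC1s replicate 3, *S100a1* was called lower (edgeR adjusted p = 0.0302).

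Between AL 7R- ILC1s and FL G1-ILCs, both with *Il7r* at 1.71 CPM or less, *S100a4*, *S100a6*, *S100a10* and *S100a11* were not called. For *S100a6* the log2 fold change of FL G1-ILCs over AL 7R- ILC1s was -0.31 (95% interval -0.62 to 0.01, edgeR adjusted p = 0.111). It was -0.02 (-0.22 to 0.17) for *S100a11*, 0.04 (-0.19 to 0.27) for *S100a10* and -0.14 (-1.01 to 0.72) for *S100a4*. The *S100a6* difference was called in a fit of these 2 groups alone, in one of the 6 groups of liver and bone marrow, and without AL 7R- ILC1s replicate 2. *S100a8* and *S100a9* were the 2 members called higher, and 0 were lower, in a comparison that called 22.4% of all genes higher and 20.1% lower.

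AL 7R+ ILC1s and BM iILC1s, which share IL-7R, differed in *S100a11*. It was higher in AL 7R+ ILC1s by a log2 fold change of 0.67 ± 0.102 (edgeR adjusted p = 4.81e-05), without overlap of samples. This was the 1 member called higher (3.84% of all genes), and *S100a8* and *S100a9* were the 2 called lower (4.23%).

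LPL ILC1s had less of 4 members than AL 7R+ ILC1s and more of 2, where 26.2% and 24.8% of all genes were called. *S100a6* had a log2 fold change of -2.66 ± 0.174 (edgeR adjusted p = 1.01e-12) and *S100a11* of -1.57 ± 0.0975 (edgeR adjusted p = 3.85e-13). *S100a4* fell by 2.42 and *S100a10* by 0.59 on the log2 scale (edgeR adjusted p = 0.000412 and 8.32e-05). *S100a1* was higher by 1.16 ± 0.274 (edgeR adjusted p = 0.000955). *S100a13* was higher by 0.39 ± 0.138 (edgeR adjusted p = 0.0192), a direction that turned to -0.08 when levels were scaled by library totals alone. The TMM scaling moved all genes of this comparison by 0.47 on the log2 scale, since the LPL libraries had factors of 0.775 to 0.797.

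SG G1-ILCs were compared with AL 7R- ILC1s, both of which express *Itga1*, the gene of CD49a. *S100a1* was higher in SG G1-ILCs by a log2 fold change of 1.30 ± 0.284 (edgeR adjusted p = 0.000759), a call lost without SG G1-ILCs replicate 1. *S100a6* had -1.49 ± 0.188 (edgeR adjusted p = 4.81e-07), *S100a4* -1.94 ± 0.566 (edgeR adjusted p = 0.00918), *S100a10* -0.57 ± 0.132 (edgeR adjusted p = 0.00131) and *S100a11* -0.33 ± 0.109 (edgeR adjusted p = 0.0213). That made 1 higher and 4 lower, where 17.8% and 14.6% of all genes were called. The calls of *S100a4* and *S100a10* were lost without SG G1-ILCs replicate 2 (edgeR adjusted p = 0.192 and 0.109 at most over the alternatives), that of *S100a4* also without a filter. The call of *S100a11* was lost without a filter, without AL 7R- ILC1s replicate 1 and without either SG sample. The summed macrophage and epithelial genes were highest in these 2 SG samples, with *Cd14* at 157 to 380 CPM and *Cdh1*, which made nearly all of the epithelial sum, at 783 to 921 CPM. Not all genes of the lists followed: *Epcam* was at 22.3 to 26.3 CPM there and at 40.5 to 78.0 CPM in AL 7R- ILC1s, *Lyz2* at 71.5 to 110.5 CPM there and at 308 CPM in BM iILC1s replicate 2, and *Bpifa2*, a salivary secretory gene, was at 0. The part of those transcripts in the S100 levels was not tested.

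Ratios of 2 genes within a sample do not depend on the scaling between samples. The ratio of *S100a6* to *S100a10* counts was 1.19 to 1.597 in AL 7R- ILC1s, 0.979 to 1.09 in FL G1-ILCs and 0.637 to 0.734 in SG G1-ILCs. It was 0.515 to 0.535 in BM iILC1s and 0.406 to 0.525 in AL 7R+ ILC1s, which overlapped. NK cells had 0.217 to 0.258 in liver and 0.113 to 0.152 in bone marrow, and LPL ILC1s 0.0818 to 0.152. Each ILC1 sample of liver or bone marrow was thus above each NK sample. The ratio of *S100a11* to *S100a10* ran from 0.406 in an LPL sample to 1.56 in an SG sample, and in BM iILC1s (0.594 to 0.637) it overlapped with BM NK cells (0.52 to 0.604).

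**Figure D4:**
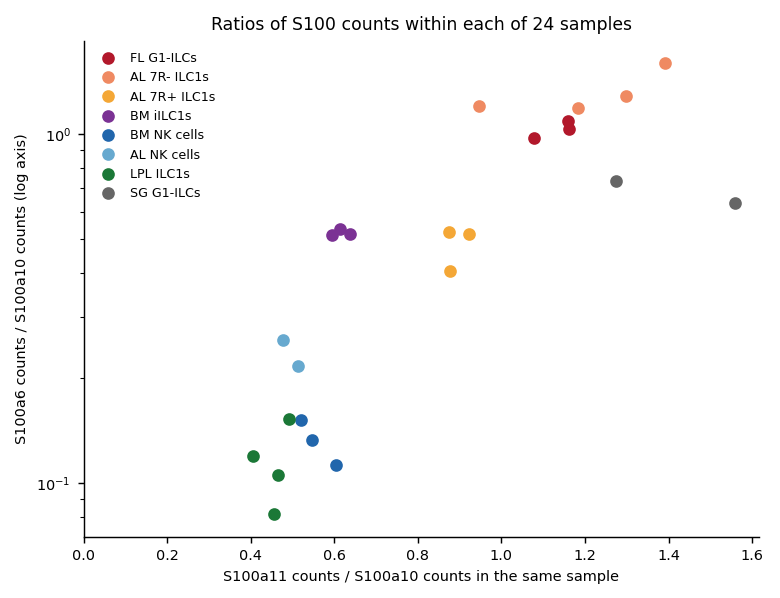
Ratio of *S100a6* to *S100a10* counts (y axis, log scale) against the ratio of *S100a11* to *S100a10* counts (x axis) in each of 24 samples, coloured by group. BM iILC1s and AL 7R+ ILC1s sit at a like height near 0.5 but apart along the x axis, and NK cells and LPL ILC1s sit lowest.

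*S100a8* and *S100a9* were carried by 3 samples. FL G1-ILCs had 15.9, 0 and 40.4 CPM of *S100a8* and 14.2, 0.289 and 45.9 CPM of *S100a9* in replicate 1, replicates 2 and 3 counted together, and replicate 4. BM iILC1s had 0.785, 66.6 and 2.196 CPM of *S100a8* and 1.57, 50.1 and 2.60 CPM of *S100a9*. In every other group each library held at most 3 counts of either gene, and AL NK cells and SG G1-ILCs held 0 counts of both. Within FL G1-ILCs and BM iILC1s the samples therefore lay far apart, and 1 FL sample was as low as the other groups. Both genes passed the filter on low counts through samples of FL G1-ILCs and BM iILC1s alone, the groups in which they were called higher.

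The fitted calls for this pair inherit that spread. FL G1-ILCs were at least 52.1-fold higher than AL NK cells in *S100a8* and at least 55.6-fold in *S100a9*, against a floor of 3 counts over the AL NK group (edgeR adjusted p = 0.00666 and 0.0067). BM iILC1s over BM NK cells had ratios of 129 (95% counting interval 43.7 to 626.5) and 100.3 (34.0 to 489) to 3 counts (edgeR adjusted p = 0.00533 and 0.01). Against AL 7R- ILC1s, FL G1-ILCs had at least 119-fold more *S100a9*, and BM iILC1s had at least 109-fold more than AL 7R+ ILC1s. Without the 3 samples, none of the calls against NK cells remained for either gene, whereas *S100a9* was still called lower in AL 7R+ ILC1s than in BM iILC1s (edgeR adjusted p = 0.018). The other 2 samples of BM iILC1s held 21 counts, at least 12.5-fold above the floor of 3 counts over AL 7R+ ILC1s, and the call was lost when BM iILC1s replicate 2 alone was left out (edgeR adjusted p = 0.0622). Against AL NK cells the *S100a8* call in FL G1-ILCs was also lost without either sample of AL NK cells and that of *S100a9* without replicate 1. In bone marrow the *S100a8* call was lost with DESeq2 and that of *S100a9* without BM NK cells replicate 1 or 2.

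Other genes of the neutrophil lineage rose in the same samples. The summed level of 14 neutrophil genes was 421 CPM in BM iILC1s replicate 2, 313 CPM in FL G1-ILCs replicate 4 and 59.3 CPM in FL G1-ILCs replicate 1. It was 25.1 CPM in BM NK cells replicate 3, of which *Chil3* made 20.04 CPM, and at most 9.03 CPM in the other 20 samples. All 14 genes had counts in the first 2 samples and 13 in FL G1-ILCs replicate 1. *Mmp9* was left out of this sum after its values were seen, because it reached 443 ± 60.4 CPM (n = 3) in AL 7R+ ILC1s, where *S100a8* had 1 count in all and *S100a9* had 0.

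The 3 samples differed from one another in which granule genes accompanied the pair. *Ngp*, a granule gene of maturing neutrophils, was at 174 CPM in BM iILC1s replicate 2, 172 CPM in FL G1-ILCs replicate 4 and 16.8 CPM in FL G1-ILCs replicate 1. *Mpo* and *Elane*, granule genes of myeloid progenitors, were at 734.6 and 217 CPM in BM iILC1s replicate 2, at 0.217 and 0 CPM in FL G1-ILCs replicate 4 and at 0 in FL G1-ILCs replicate 1. The list of 6 such progenitor genes summed to 1087 CPM in the first and at most 2.63 CPM in all other samples. *Retnlg*, a gene of mature neutrophils, was at 11.2 CPM in FL G1-ILCs replicate 1 and 0.652 CPM in replicate 4, and *Ly6g*, which encodes the neutrophil surface protein Ly6G, had 12, 5 and 0 counts in BM iILC1s replicate 2, FL G1-ILCs replicate 4 and FL G1-ILCs replicate 1. The share of *S100a8* among the counts of the pair was 57.1% (exact 95% binomial interval 53.0 to 61.1) in BM iILC1s replicate 2, 46.9% (41.9 to 51.9) in FL G1-ILCs replicate 4 and 52.8% (44.8 to 60.7) in FL G1-ILCs replicate 1, so the first interval lies above that of the second.

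**Figure D5:**
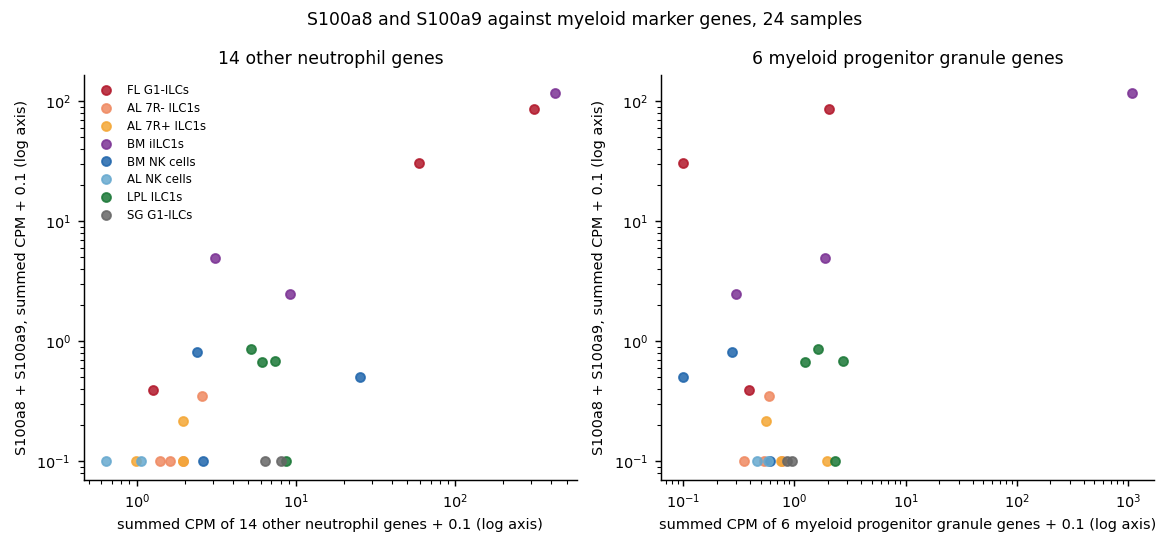
Summed CPM of *S100a8* and *S100a9* (y axis) in each of 24 samples against the summed CPM of 14 neutrophil genes without *Mmp9* (left) and of 6 myeloid progenitor granule genes (right), all plus 0.1 on log axes. The 3 samples over 10 CPM of the pair are also the highest for the neutrophil genes, and BM iILC1s replicate 2 alone is high for the progenitor genes, at 1087 CPM.

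*S100a4*, *S100a6* and *S100a11* kept their calls against NK cells without these 3 samples. In FL G1-ILCs over AL NK cells the log2 fold change without them was 1.81 for *S100a6* and 0.92 for *S100a11*, and in BM iILC1s over BM NK cells it was 1.53 for *S100a6*. The *S100a10* call in FL G1-ILCs was lost (log2 fold change -0.31, edgeR adjusted p = 0.266), and the uncalled *S100a1* there turned from -0.15 to 0.19. In BM iILC1s the T cell genes *Cd3e* and *Trac* were at 121 to 169 and 132 to 201 CPM, against at most 0.202 CPM of *Cd3e* in BM NK cells, in cells gated as CD3-. Their part in the *S100a4* and *S100a6* levels was not tested.

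Across the 24 samples, which share their groups, *S100a6* and *S100a11* had a Pearson correlation of log2 CPM of 0.90, *S100a4* and *S100a6* of 0.84, *S100a4* and *S100a11* of 0.64, and *S100a8* and *S100a9* of 0.98. *S100a10* correlated with *S100a6* at 0.37, and the adjacent *S100a1* and *S100a13* at 0.50. The genes most like each member were ranked by the same measure. For *S100a6* these were *Itpripl2* (0.948), *Cd52* (0.927), which encodes a small surface glycoprotein of lymphocytes, and *Arap3* (0.909). For *S100a4* they were *Adam19* (0.910), *Cd3g* (0.894), a chain of the CD3 complex, and *Rgs18* (0.880), and for *S100a11* *Rps6ka1* (0.959), *Sh3bp1* (0.943) and *Lasp1* (0.942). *S100a10* was closest to *Tfeb* (0.908), *Hes6* (0.879) and *BC035044* (0.875), *S100a13* to *Gzmb* (0.807), which encodes granzyme B, *Arpc1b* (0.805) and *Capzb* (0.803), and *S100a1* to *Npc2* (0.841), *Ncf4* (0.8165) and *Rassf1* (0.806). For *S100a8* and *S100a9* the ranking left out the neutrophil genes, which are too low on average. Among the genes with a mean log2 CPM of at least 3, *Wdr4* (0.632 and 0.706), *Smpd4* (0.6135, *S100a8*), *mt-Cytb* (0.652, *S100a9*) and *Erap1* (0.596 and 0.650) were the closest.

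Genes of S100 partner proteins were measured in the same samples. *Anxa2*, whose product holds S100A10 in a complex, had means of 1382 CPM in AL NK cells, 1180 CPM in BM NK cells, 1014 CPM in FL G1-ILCs, 575 CPM in AL 7R- ILC1s, 379 CPM in AL 7R+ ILC1s and 653.5 CPM in BM iILC1s. It was lower than in NK cells in all 4 comparisons, with log2 fold changes of -0.45, -1.27, -1.87 and -0.85. *Anxa1*, whose product binds S100A11, was lower than in AL NK cells in AL 7R- ILC1s (-2.46), AL 7R+ ILC1s (-1.65) and also FL G1-ILCs (-1.34), while the contrast of bone marrow with liver was 2.04 (log2). *Cacybp*, the partner of S100A6, was higher in FL G1-ILCs alone among the 4 (0.61 ± 0.132). *Ahnak*, a giant scaffold bound by the S100A10 and annexin A2 complex, was lower in AL 7R+ ILC1s (-0.56) and FL G1-ILCs (-0.89), and had -0.05 without a call in AL 7R- ILC1s.

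By list, 10 of 12 annexin genes, 13 of 18 partners and receptors (which include *Anxa1*, *Anxa2* and *Anxa11*) and 13 of 14 other EF-hand genes were tested. Against NK cells, the annexins had 0 higher and 4 lower for AL 7R- ILC1s, 1 and 4 for FL G1-ILCs, 0 and 4 for AL 7R+ ILC1s and 1 and 3 for BM iILC1s. The partners had 0 and 4, 2 and 4, 0 and 5, and 1 and 2 in the same order, and the EF-hand genes 2 and 2, 5 and 2, 1 and 2, and 1 and 2. The median log2 fold changes of the annexins were -0.15, 0.15, -0.26 and 0.17, beside medians of all genes from 0.00 to 0.03. The shares of all genes called higher and lower were, in that order, 9.94% and 10.5%, 19.8% and 16.6%, 7.96% and 7.61%, and 6.55% and 5.55%. Between AL 7R+ and AL 7R- ILC1s the counts of higher and lower genes were 1 and 1 for annexins, 1 and 2 for partners and 0 and 1 for EF-hand genes, where 3.06% and 2.22% of all genes were called.

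Of the most abundant genes of these lists, *Anxa6*, a membrane-binding annexin, was higher in FL G1-ILCs (0.30) and lower in AL 7R- (-0.69) and AL 7R+ ILC1s (-0.47) than in AL NK cells. *Lcp1*, which encodes the actin-bundling protein plastin of leukocytes, was higher in FL G1-ILCs (0.42). In LPL ILC1s, where *S100a6* and *S100a11* were lowest, *Anxa2* was higher than in AL 7R+ ILC1s by 0.43 ± 0.0915, and *Ahnak* had -1.06 ± 0.127. The TMM scaling moved all genes of this comparison by more than the *Anxa2* difference, which therefore depends on that scaling.

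The rest of the S100 family was close to silent. Of 10 further family members 9 were found in the table and 0 passed the filter on low counts. The highest level was 2.21 CPM, of *S100a3* in AL 7R+ ILC1s replicate 2, and *S100g* reached 1.65 CPM. At this depth a difference in these genes was not detectable.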

How the data were processed

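RNA of the 25 sorted libraries was sequenced after SMART-seq HT amplification. Per the study's methods and the submitters' processing notes, trimming by the authors used fastp 0.23.0, alignment HISAT2 2.1.0 against mm10, and counting the featureCounts program (Subread 1.6.5). The deposited values are raw counts per Ensembl gene. The annotation release and the settings for strand and for reads in overlapping genes are not given in the sources used here. Amplified reads without molecular identifiers are not independent molecules, so counting intervals and floors cover counting error alone.

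Identifiers were matched to GENCODE vM21, and those without a match held 0.104% of the counts. In a chi-square comparison of replicate counts, FL G1-ILCs libraries 2 and 3 had 1.18 per degree of freedom against 3.505 or more in the other 28 of 29 pairs, and were summed. Genes were filtered with filterByExpr (minimum count 10), scaled by TMM and fitted in 1 quasi-likelihood model of 8 groups and 24 samples in edgeR 4.0.16 under R 4.3.3. A gene was called at a Benjamini-Hochberg adjusted p under 0.05 over the 14123 genes tested. AL NK cells and SG G1-ILCs, with 2 samples each, take their spread from all groups. SE is the fold change divided by the root of the F statistic. A level of 0 counts was read against a floor of 3 counts over the group. The scripts were tested on simulated counts.

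All 8 members were named, with the 3 genes of highest Pearson correlation in log2 CPM (prior count 2) among genes with a mean log2 CPM of at least 3, the partners *Anxa1*, *Anxa2*, *Ahnak* and *Cacybp*, and the most abundant genes of each list, of which some values are not reported here. The members and the lists were chosen with earlier results of these data known. Alternatives were DESeq2 1.42.0, its size factors, no filter, a minimum count of 30, thinning to 3752189 counts per sample, the replicate number as a block, all 25 libraries, fewer groups, a log2 limit of 1, and each sample left out. The fit without the 3 samples over 10 CPM of *S100a8* and *S100a9* was chosen after seeing the data.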

Additional observations from a re-analysis of the deposited data

Results flagged for a closer look

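The fold change of ILC1s over NK cells differed between bone marrow and liver and passed the edgeR test for 2 members, with AL 7R+ ILC1s as the liver group. The difference was 0.93 ± 0.255 (log2, adjusted p = 0.0409) for *S100a6* and -0.73 ± 0.154 (adjusted p = 0.00542) for *S100a11*. The *S100a6* call was lost in 11 of 21 alternatives.

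Of 15 groups of 4 samples in which a gene was checked for a sample far from the others, 2 had one. Both rest on 0 or 1 count per sample, where single counts alone can set the flag. A chance rate of 1 in 20 therefore does not apply to them. In AL 7R- ILC1s, *S100a8* was at 0.2485 CPM in replicate 1, which is 1 count, and at 0 in the other 3 samples. In LPL ILC1s, *S100a9* was at 0 in replicate 4 and at 0.254 to 0.292 CPM, 1 count each, in the others.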

How the results depend on the processing

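The counts of called members were recomputed under each alternative. Without a filter on low counts, members lower than AL NK cells became 0 for AL 7R- ILC1s, 0 for FL G1-ILCs and 1 for AL 7R+ ILC1s, members higher in LPL ILC1s became 1 and members lower in SG G1-ILCs 2. With a log2 limit of 1, members lower became 0 for both AL 7R- ILC1s and FL G1-ILCs and 1 for AL 7R+ ILC1s, each against AL NK cells, 0 in BM iILC1s against BM NK cells, 1 in AL 7R+ against AL 7R- ILC1s, 0 in BM NK against AL NK cells and 2 in SG G1-ILCs. With the same limit, members higher became 2 for AL 7R- ILC1s, 4 for FL G1-ILCs and 1 for AL 7R+ ILC1s, each over AL NK cells, 0 in AL 7R+ ILC1s against BM iILC1s and 1 in LPL ILC1s (3 lower), and the contrast of bone marrow with liver had 0 higher and 0 lower. In fits of the groups compared alone, members higher became 2 in BM iILC1s against BM NK cells. They became 0 in FL G1-ILCs against AL 7R- ILC1s, with 1 lower there (also 1 in the fit of 6 groups). In AL 7R+ ILC1s against BM iILC1s, 0 were lower. *S100a8* and *S100a9* did not pass the filter on low counts in these fits of the groups compared alone, so they were not tested there.

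Without the 3 samples over 10 CPM of *S100a8* and *S100a9*, members higher became 3 in FL G1-ILCs against AL NK cells (0 lower), 2 in BM iILC1s against BM NK cells, 0 in FL G1-ILCs against AL 7R- ILC1s and 0 in the contrast of bone marrow with liver, and 1 was lower in AL 7R+ ILC1s against BM iILC1s. The fitted log2 fold change of *S100a8* in FL G1-ILCs against AL 7R- ILC1s was then -1.58 (adjusted p = 0.684), where both groups held at most 3 counts.

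Samples with the same replicate number did not deviate together (mean correlation -0.00452, 0 of 74 pairs over 0.1, range -0.0819 to 0.0458). With so few libraries per group this cannot exclude that the numbers pair the samples, and the labels do not say. With the replicate block, members lower in FL G1-ILCs against AL NK cells became 0 and members higher in the contrast of bone marrow with liver 0.

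With 1 sample left out at a time, the counts higher and lower than AL NK cells ran from 3 to 5 and 0 to 1 in FL G1-ILCs, from 0 to 1 (lower) in AL 7R- ILC1s, and from 1 to 3 and 0 to 1 in AL 7R+ ILC1s. They ran from 2 to 4 and 0 to 2 in BM iILC1s against BM NK cells, from 2 to 3 (lower) in AL 7R+ against AL 7R- ILC1s, from 0 to 1 (lower) in FL G1-ILCs against AL 7R- ILC1s, from 0 to 2 (lower) in AL 7R+ ILC1s against BM iILC1s and from 0 to 1 (lower) in BM NK against AL NK cells. For LPL ILC1s 1 to 2 were higher, for SG G1-ILCs 0 to 1 were higher and 1 to 4 lower, and for the contrast of bone marrow with liver 0 to 1 were higher. Where 1 sample was left in a group, it was assumed to vary like the other groups. The cause of these changes was not tested. Of single fold changes, 1362 kept their side of the threshold, 85 lost a call, 5 gained one and 1 changed sign with the loss of its call. The 1362 include fold changes that were not called and changed sign, such as *S100a10* in AL 7R+ against AL 7R- ILC1s (-0.09 to 0.10). Depth limits *S100a4*, *S100a8* and *S100a9* in NK cells, which rest on 6 counts or fewer per group.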
